A study of Mus musculus with 8 samples.

Results

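The Hedgehog transducers and coreceptors are the genes through which a cell releases, binds and relays the Hedgehog signal. The 9 members were chosen by symbol from the 27998 genes of the count tables: Disp1, which releases the ligand; the coreceptors Gas1, Cdon, Boc and Lrp2; the transducer Smo; the inhibitor Sufu; and the transcription factors Gli2 and Gli3. All 9 symbols were found once each. They are described here across cell classes of the mouse cortex that were built from marker genes, with the members themselves left out of the genes used for clustering.

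The study compared cortex that had received ShhN, the signalling fragment of sonic hedgehog, with cortex of wild type (WT) littermates, to ask how this outside signal acts on the lineage of cortical stem cells. The ShhN group was CD1 mouse cortex that took up a ShhN plasmid by electroporation in the womb at E13.5 and was harvested at embryonic day 16.5. The WT group was CD1 cortex of the same embryonic day, 16.5. In utero electroporation puts plasmid into some of the progenitors that line the ventricle, so that only part of a brain carries it. The labels name neither the promoter that drives ShhN nor any electroporation of the WT littermates. Each group is labelled as 4 samples, but its cells lie in 1 matrix and could not be traced to a sample, so that each group is 1 library. No difference between the libraries has a replicate check, and none was tested. The intervals given are 95% intervals that cover counting error only, not the variation between embryos or electroporations.

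Without ligand, the receptor Ptch1 holds Smo inactive, and Sufu binds the Gli proteins and favours the repressor form of Gli3. Ligand bound to Ptch1, helped by the coreceptors, frees Smo, which moves into the primary cilium and lets Gli2 act as an activator. Ptch1, Hhip and Gli1 are themselves raised by the signal and are widely used as its readout. In the embryonic forebrain, Gli3 is known mainly as a repressor that restrains Hedgehog responses in the dorsal cortex.

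The ShhN library held 69470062 unique molecular identifiers (UMIs, 1 per captured transcript molecule) and the WT library 63760199, of which 8075 ShhN and 6924 WT cells were kept. Median depth was 6683 UMIs per ShhN cell and 6279 per WT cell. The libraries shared 71 cell barcodes, against 75.8 given by the lengths of the lists. Shh itself had 5910 UMIs in ShhN cells and 0 in WT cells, as the labels imply. Clustering gave 21 clusters, of which 18 were named from markers. Radial glia-like cells, the cortical stem cell class, numbered 249 in the ShhN and 175 in the WT library, and all 16 listed radial glia markers were raised in them. Blood transcripts stood beside every comparison of this class: 8 erythroid markers summed to 4649 CPM (UMIs of the gene per 1e+06 UMIs of the class) in ShhN and 14819 CPM in WT radial glia-like cells. The part of such transcripts in the results was not tested. Neurogenic progenitor-like cells, the intermediate progenitors that divide to make neurons, numbered 590 ShhN and 991 WT cells. A UMI of Mki67 or Top2a, genes of dividing cells, was seen in 40 of these ShhN and 45 of these WT cells. The larger of the 2 clusters in the class (448 ShhN and 712 WT cells) had 3 of its own markers and 3 of migrating neurons among its 10 leading genes. Intermediate progenitors of glia or of olfactory bulb (OB) neurons, called glial/OB progenitor-like and led by Olig1 and Olig2, numbered 525 ShhN and 94 WT cells. That name rests on 7 of 10 markers that were raised, since the summed level of its list did not set the class apart. In the ShhN library the list summed to 3745 CPM in the class and 4118 CPM over all cells, and in the WT library to 3539 CPM in the class and 3960 CPM over all cells. Cluster 8, a group of dividing cells led by Top2a that no marker list named, held 668 ShhN and 86 WT cells. The neurons fell into migrating (1491 ShhN and 398 WT cells), upper layer (2516 ShhN and 2513 WT), deep layer (1355 ShhN and 1374 WT) and GABAergic interneuron-like classes (416 ShhN and 782 WT). Vascular-like cells, 34 in the ShhN and 47 in the WT library, were used as a class outside the neural lineage.

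In both libraries 6 of the 9 members, Gas1, Cdon, Boc, Smo, Gli2 and Gli3, had their highest level in radial glia-like cells, among 10 classes with at least 50 cells in the ShhN library and 11 in the WT library. For Smo in the WT library, and for Gli2 in both, the interval of the next class overlapped that of radial glia-like cells. Gas1, Cdon, Boc and Gli3 lay clear of the other classes of that size in both libraries. Sufu was highest in neurogenic progenitor-like cells, though the interval of the next class overlapped in both libraries. Disp1 had no class that stood apart, and Lrp2 was close to absent. The clusters were formed on the same cells, so that these orders are descriptions.

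**Figure D1:**
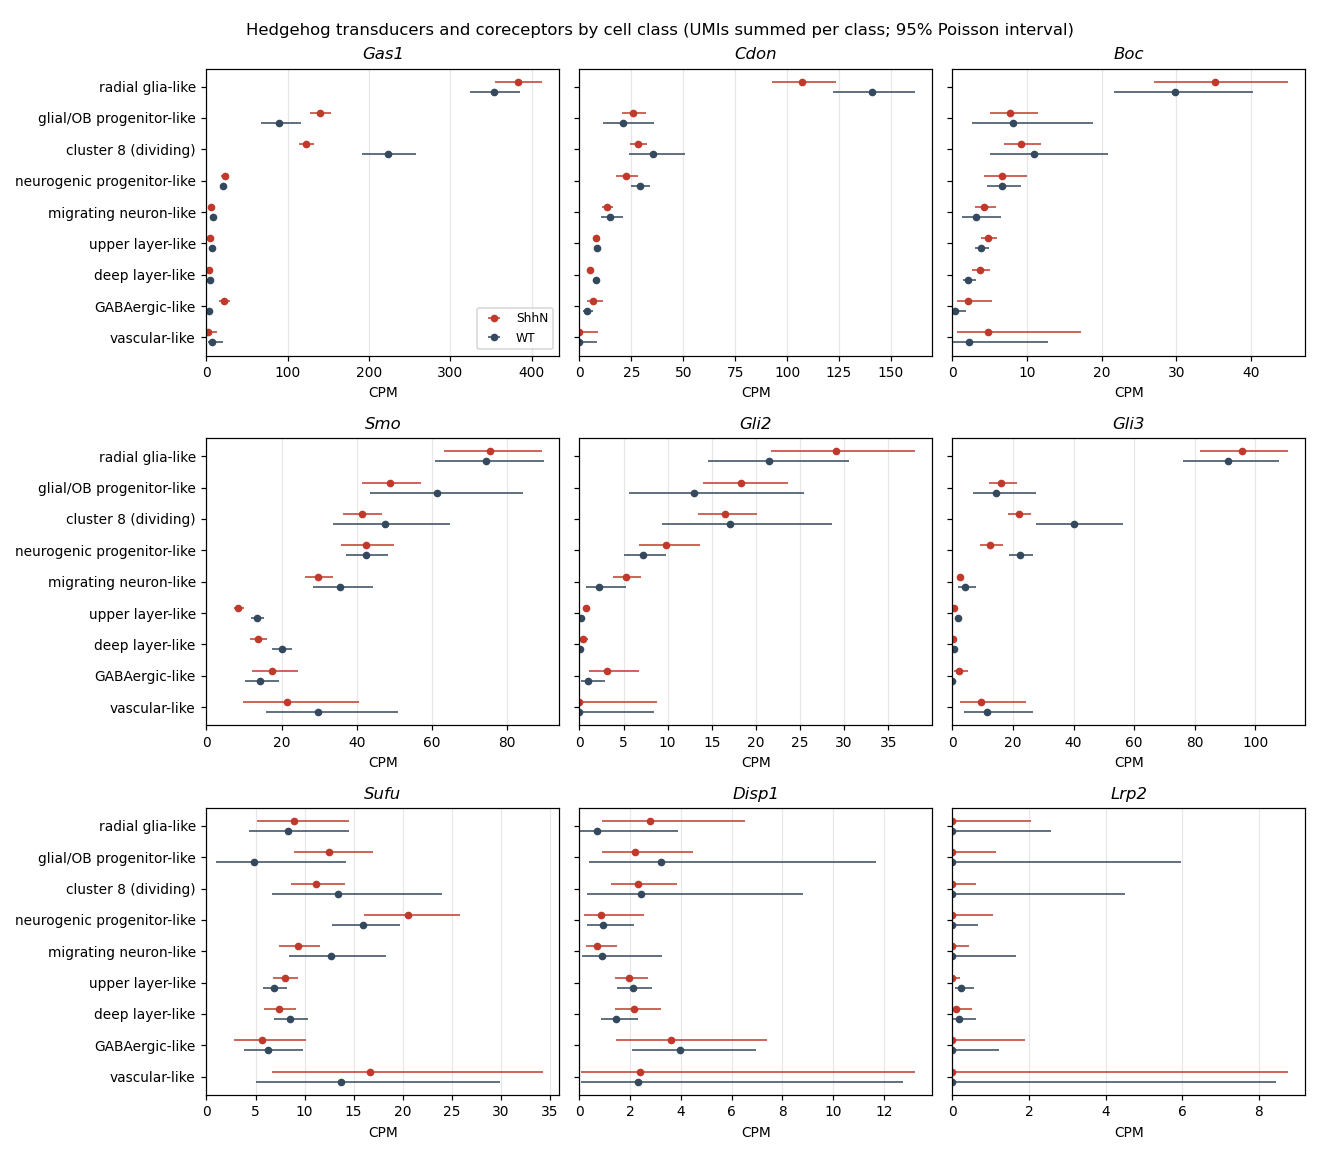
Level of each member (horizontal axis, CPM, a scale of its own for each gene) in 9 cell classes (vertical axis) in the ShhN library (red) and the WT library (dark blue). Points are UMIs summed over a class and bars are 95% Poisson intervals; Gas1 stood at 384 CPM in ShhN and 354 CPM in WT radial glia-like cells.

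Gas1 encodes a protein held to the cell surface by a lipid anchor that binds the ligand and presents it to Ptch1. Its gene lies on chromosome 13, from 60174405 to 60177365 on the minus strand (GRCm38). In radial glia-like cells it reached 384 CPM (interval 356 to 413) in the ShhN library and 354 CPM (324 to 386) in the WT library. These values differed by less than their counting error. The other progenitor groups came next, and there the libraries parted. Glial/OB progenitor-like cells held Gas1 at 140 CPM (450 UMIs) in the ShhN library and 88.9 CPM (55 UMIs) in the WT library. Cluster 8 went the other way, with Gas1 at 123 CPM (749 UMIs) in ShhN and 223 CPM (183 UMIs) in WT cells. The share of cells with a Gas1 UMI, each cell thinned to 4500 UMIs, did not part the libraries in either group. It was 29.3% (189 of 644) in ShhN and 29.3% (24 of 82) in WT cells of cluster 8, and 22.9% in ShhN and 18.8% in WT glial/OB progenitor-like cells, with overlapping intervals. Neurogenic progenitor-like cells had Gas1 at 22.2 CPM in the ShhN and 20.0 CPM in the WT library. The upper layer neuron-like class held Gas1 at 4.82 CPM in ShhN and 6.67 CPM in WT cells, which is below the Gas1 level of the free RNA in near-empty droplets, 28.5 CPM in the ShhN and 16.1 CPM in the WT library. How much of a cell's UMIs was free RNA was not measured. Here and below, a level under that of free RNA therefore does not mark a gene as absent.

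Cdon and Boc encode related membrane proteins of the immunoglobulin family that bind the ligand directly. Cdon (chromosome 9, 35421128 to 35507652, plus strand) stood at 107 CPM (192 UMIs) in ShhN and 141 CPM (203 UMIs) in WT radial glia-like cells. The log2 ratio of ShhN over WT for Cdon was -0.39 (-0.69 to -0.10), so that its interval lay below 0. Outside this class Cdon stood at 28.2 CPM in ShhN and 35.3 CPM in WT cells of cluster 8, and 22.5 and 29.0 CPM in ShhN and WT neurogenic progenitor-like cells. Migrating neuron-like cells held Cdon at 13.3 CPM in the ShhN and 14.9 CPM in the WT library, below its level in free RNA, 19.3 CPM in ShhN and 24.7 CPM in WT. Boc (chromosome 16, 44485049 to 44558897, minus strand) had 63 UMIs, or 35.2 CPM, in ShhN and 43 UMIs, or 29.9 CPM, in WT radial glia-like cells. Its next highest level, in cluster 8, was 9.18 CPM in ShhN and 11.0 CPM in WT cells. Boc UMIs were also counted in neurons, at 4.82 CPM in ShhN and 3.86 CPM in WT upper layer neuron-like cells. Deep layer neuron-like cells held Boc at 3.69 CPM in the ShhN and 2.12 CPM in the WT library (log2 ratio 0.80, 0.04 to 1.58). Free RNA held Boc at 3.35 CPM (0.91 to 8.59) in the ShhN and 2.85 CPM (0.59 to 8.33) in the WT library, so that these neuronal values were not apart from it.

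Lrp2 encodes megalin, a large uptake receptor that binds the ligand in the ventral forebrain. Its gene is on chromosome 2, 69424340 to 69586065, minus strand. Lrp2 gave 1 UMI over all ShhN cells and 7 UMIs over all WT cells. No radial glia-like cell of either library held an Lrp2 UMI, for which the limit of 3 counts allows up to 1.68 CPM in the ShhN and 2.08 CPM in the WT class. At this depth the Lrp2 message was not detectable in the cortical stem cells, and no ratio was formed in that class. Over all cells the Lrp2 log2 ratio was -3.11 (-8.60 to -0.15), on too few UMIs to be called.

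Smo encodes the membrane protein that relays the signal inward (chromosome 6, 29735503 to 29761365, plus strand). It was also counted outside the stem cells. Radial glia-like cells had Smo at 75.4 CPM (135 UMIs) in the ShhN and 74.3 CPM (107 UMIs) in the WT library. Glial/OB progenitor-like cells followed with Smo at 48.8 CPM in ShhN and 61.4 CPM in WT cells. Neurogenic progenitor-like cells had Smo at 42.5 CPM in the ShhN and 42.6 CPM in the WT library, and cluster 8 at 41.3 and 47.5 CPM in the ShhN and WT libraries. Migrating neuron-like cells still held Smo at 29.8 CPM in the ShhN and 35.7 CPM in the WT library. In the upper and deep layer classes the level was lower again, and lower in the ShhN library. Upper layer neuron-like cells had Smo at 164 UMIs, or 8.51 CPM, in ShhN and 245 UMIs in WT cells, a log2 ratio of -0.67 (-0.96 to -0.37). Deep layer neuron-like cells had Smo at 13.8 CPM in ShhN and 20.0 CPM in WT cells, a log2 ratio of -0.54 (-0.85 to -0.24). Both classes are mixed. The migrating neuron list scored highest in cluster 1 of the upper layer class (914 ShhN and 967 WT cells). It also did so in cluster 6 of the deep layer class (372 ShhN and 610 WT cells). The part of this mix in the ratios was not tested. Free RNA held Smo at 23.5 CPM (15.6 to 33.9) in the ShhN and 26.6 CPM (17.7 to 38.4) in the WT library. The upper and deep layer neuron-like classes lay below it. Migrating neuron-like cells, with intervals of 26.3 to 33.6 CPM in ShhN and 28.2 to 44.4 CPM in WT cells, were not apart from it.

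Sufu encodes the cytoplasmic inhibitor that tethers Gli proteins (chromosome 19, 46396896 to 46488804, plus strand). Its highest level lay past the stem cells, though in the WT library the interval of the neurogenic progenitor-like class overlapped that of radial glia-like cells. The neurogenic progenitor-like class held Sufu at 20.5 CPM (71 UMIs) in the ShhN and 15.96 CPM (87 UMIs) in the WT library. Radial glia-like cells held Sufu at 8.94 CPM (16 UMIs) in ShhN and 8.33 CPM (12 UMIs) in WT cells. Upper layer neuron-like cells, at 7.99 CPM in the ShhN and 6.89 CPM in the WT library, did not differ from radial glia-like cells beyond counting error. Free RNA held Sufu at 4.19 CPM (1.36 to 9.79) in the ShhN and 9.50 CPM (4.55 to 17.5) in the WT library, a range that takes in both classes.

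Gli2 is the main activator of the Gli family and Gli3 its main repressor. Gli2 (chromosome 1, 118834132 to 119053619, minus strand) had 52 UMIs, or 29.0 CPM, in ShhN and 31 UMIs, or 21.5 CPM, in WT radial glia-like cells. The next class for Gli2 in the ShhN library was the glial/OB progenitor-like class, at 18.4 CPM in ShhN and 12.9 CPM in WT cells. Cluster 8 had Gli2 at 16.6 CPM in the ShhN and 17.1 CPM in the WT library. Gli3 (chromosome 13, 15463235 to 15730026, plus strand) differed more between classes, with 171 UMIs, or 95.5 CPM, in ShhN and 131 UMIs, or 91.0 CPM, in WT radial glia-like cells. Cluster 8 came second for Gli3 at 22.0 CPM in ShhN and 40.2 CPM in WT cells. Neurogenic progenitor-like cells had Gli3 at 12.4 CPM (43 UMIs) in the ShhN and 22.4 CPM (122 UMIs) in the WT library. Vascular-like cells held no Gli2 UMI and 4 ShhN and 5 WT Gli3 UMIs.

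Disp1 encodes the transporter that releases the lipid-bearing ligand from the cell that makes it (chromosome 1, 183086266 to 183221522, minus strand). It gave 110 UMIs over all ShhN cells and 86 over all WT cells, at 1.92 CPM in the ShhN and 1.85 CPM in the WT library. Radial glia-like cells held 5 Disp1 UMIs in the ShhN and 1 in the WT library. Upper layer neuron-like cells, which carried 3702 Shh UMIs in the ShhN library and 0 in the WT library, held 38 Disp1 UMIs in each. Among named and unnamed classes with at least 50 cells, neighbours in the order of Disp1 levels overlapped in their intervals in both libraries.

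The levels were then compared between the libraries. A gene was measured with 50 or more UMIs in the libraries together. It was called different when its log2 ratio lay at least 1 from 0 and the whole interval at least 0.5 from 0. Over all cells 8 of the 9 members reached 50 UMIs, of which Gli2 was called higher in the ShhN library and none was called lower. Over all 13032 genes measured, 2.85% were called higher and 1.86% lower, and 1 member of 8 is too few to set against these shares. The median log2 ratio of the 8 members was 0.05, beside -0.08 over all genes. Gli2 had 316 UMIs, or 5.51 CPM (4.92 to 6.16), in ShhN cells and 107 UMIs, or 2.30 CPM (1.89 to 2.78), in WT cells, a log2 ratio of 1.26 (0.94 to 1.59). Gas1 had 38.3 CPM in the ShhN and 23.2 CPM in the WT library (log2 ratio 0.73, 0.62 to 0.83), short of the fold required. Boc stood at 6.05 CPM in the ShhN and 4.39 CPM in the WT library (log2 ratio 0.46, 0.21 to 0.72). Smo, Sufu, Gli3, Cdon and Disp1 had log2 ratios between -0.01 and 0.05 over all cells, with intervals that spanned 0.

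**Figure D2:**
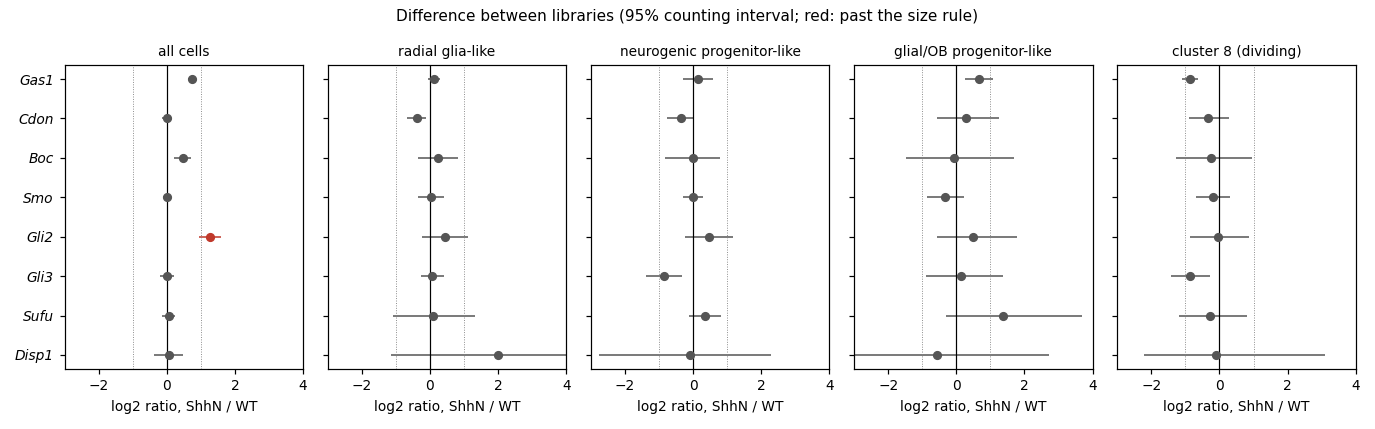
Log2 ratio of ShhN over WT (horizontal axis) for 8 members (vertical axis; Lrp2 had too few UMIs) over all cells and in 4 progenitor groups. Bars are 95% counting intervals, dotted lines mark a log2 ratio of 1 in size and red marks the gene past the size rule, Gli2 over all cells at 1.26.

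Class make-up moved with these ratios, and not in 1 direction for all progenitors. Cluster 8 made up 8.27% of ShhN cells and 1.24% of WT cells, and the glial/OB progenitor-like class 6.50% of ShhN and 1.36% of WT cells. Cluster 8 alone carried 34.1% of all Gas1 UMIs in the ShhN library and 16.99% in the WT library, and 32.0% of Gli2 UMIs in the ShhN and 13.1% in the WT library. Neurogenic progenitor-like cells went the other way, at 7.31% of ShhN and 14.3% of WT cells, and carried 10.8% of Gli2 UMIs in the ShhN and 36.4% in the WT library. To hold class make-up fixed, class levels were weighted by the share of a library's UMIs in each class. With ShhN class levels and WT class shares, the log2 ratio of Gas1 was 0.02 in place of 0.73, and that of Gli2 was 0.57 in place of 1.26. With WT class levels and ShhN class shares, the Gas1 ratio was 0.98 and the Gli2 ratio 0.84. At WT class shares the log2 ratio was -0.44 for Gli3, -0.30 for Smo and -0.26 for Cdon, against 0.02, 0.01 and -0.01 as measured. Boc kept a ratio of 0.32 at WT class shares, against 0.46 as measured.

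**Figure D3:**
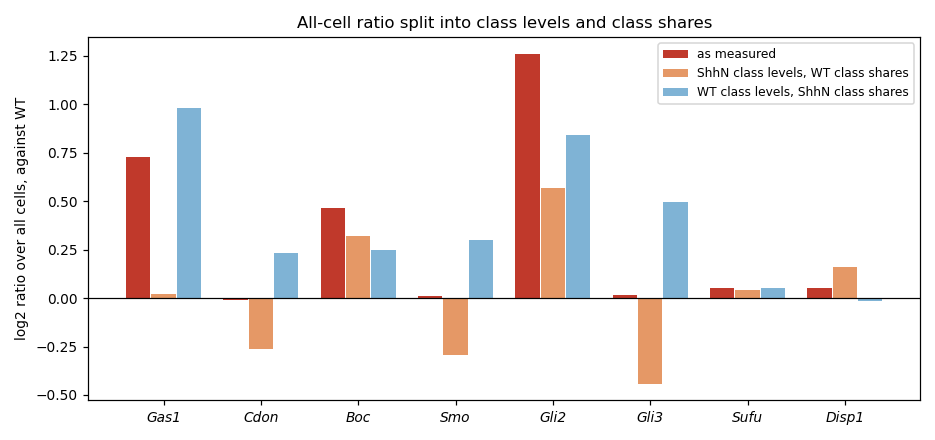
Log2 ratio over all cells against WT (vertical axis) for 8 members (horizontal axis) as measured, with ShhN class levels at WT class shares, and with WT class levels at ShhN class shares. Gas1 stands at 0.73, 0.02 and 0.98 in these 3 forms.

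In radial glia-like cells none of the 6 members measured was called higher or lower, beside 0.607% higher and 0.533% lower of 6760 genes. The median log2 ratio was 0.09 over those members and -0.01 over all genes measured in the class. Smo had a log2 ratio of 0.02 (-0.36 to 0.40), Gli3 of 0.07 (-0.27 to 0.41) and Gas1 of 0.12 (-0.05 to 0.28). For Gli2 the log2 ratio was 0.43, and its interval of -0.24 to 1.12 leaves room for a difference past 1. Cdon, given above, was the member of this class whose interval excluded 0.

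In neurogenic progenitor-like cells none of the 7 members measured was called, beside 0.192% higher and 0.576% lower of 8857 genes. The median log2 ratio of the 7 members was 0.01, and -0.08 over all genes. Gli3 came nearest, with a log2 ratio of -0.85 (-1.39 to -0.34). With finer clusters (resolution 2) it was -0.25 (-0.77 to 0.27), and with cells held to 5% mitochondrial UMIs -0.44 (-1.11 to 0.19), and both intervals span 0. Both clusters of the class lay on the same side for Gli3. The cluster led by Pcp4 had 9.28 CPM in ShhN and 17.02 CPM in WT cells, and the one led by Eomes had 21.7 CPM in ShhN and 33.7 CPM in WT cells. In cluster 8 the Gli3 log2 ratio was -0.87 (-1.43 to -0.28) and the Gas1 ratio -0.86 (-1.10 to -0.62).

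Among neurons, none of the members measured was called in the migrating (0 of 5), upper layer (0 of 6) and deep layer (0 of 5) classes. The shares of all genes called higher and lower were 0.487% and 0.432% in migrating, 0.378% and 0.793% in upper layer, and 0.143% and 0.686% in deep layer neuron-like cells. Gli3 in upper layer neuron-like cells had 9 UMIs in the ShhN and 36 in the WT library, under the 50 required. Cluster 1 of that class, led by Pdzrn3 as migrating neuron-like cells are, held 3 ShhN and 29 WT of these Gli3 UMIs. Gli2 went the other way in migrating neuron-like cells, with 46 UMIs in ShhN and 5 in WT cells, a log2 ratio of 1.22 (-0.10 to 2.91).

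In GABAergic interneuron-like cells Gas1 was called higher, 1 of 2 members measured, beside 2.27% of 7618 genes called higher and 0.551% called lower. Gas1 had 42 UMIs, or 21.6 CPM, in ShhN and 9 UMIs, or 2.98 CPM, in WT cells, a log2 ratio of 2.85 (1.79 to 4.08). The class joins a pair of clusters that the libraries filled unequally. Cluster 13, led by Dlx6os1, Dlx1 and Dlx5, held 177 ShhN cells with 39 Gas1 UMIs and 179 WT cells with 3. Cluster 7, led by Sst and Maf, held 239 ShhN cells with 3 Gas1 UMIs and 603 WT cells with 6. Gas1 in free RNA, at 28.5 CPM in the ShhN and 16.1 CPM in the WT library, was above the level of the joined class in each. That level stands for neither cluster, since the ShhN cells of cluster 13 held 929421 UMIs of all genes and those of cluster 7 held 1016607. The part of free RNA in this difference was not tested.

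The balance between the Gli factors was read as the share of Gli2 among Gli2 and Gli3 UMIs. The capture of each message differs, so that the share is compared between classes and libraries and not with an even split. Over all cells it was 41.6% (316 of 760) in the ShhN and 23.1% (107 of 463) in the WT library. Radial glia-like cells had the lowest share of the progenitor groups, 23.3% (17.9% to 29.4%) in ShhN and 19.1% (13.4% to 26.05%) in WT cells, with overlapping intervals. The neurogenic progenitor-like class had a Gli2 share of 44.2% (32.8% to 55.9%) in the ShhN and 24.2% (17.8% to 31.6%) in the WT library, and these intervals do not overlap, but the share rests on the Gli3 counts whose ratio spanned 0 under the settings given above. Cluster 8 stood at 43.0% in ShhN and 29.8% in WT cells. Migrating neuron-like cells had a share of 66.7% (46 of 69) in ShhN and 35.7% (5 of 14) in WT cells, with overlapping intervals. Upper layer neuron-like cells reached 60.9% (14 of 23) in the ShhN and 7.69% (3 of 39) in the WT library, where counts are small but the intervals lie apart. Both genes lay below free RNA in that class or close to it. Upper layer neuron-like cells had Gli2 at 0.73 CPM in ShhN and 0.17 CPM in WT cells, against 2.52 CPM in ShhN and 0.95 CPM in WT free RNA. Gli3 there stood at 0.47 CPM in ShhN and 1.98 CPM in WT cells, against 8.39 CPM in ShhN and 11.4 CPM in WT free RNA. The part of free RNA in this share was not tested, so that no difference is read from it.

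**Figure D4:**
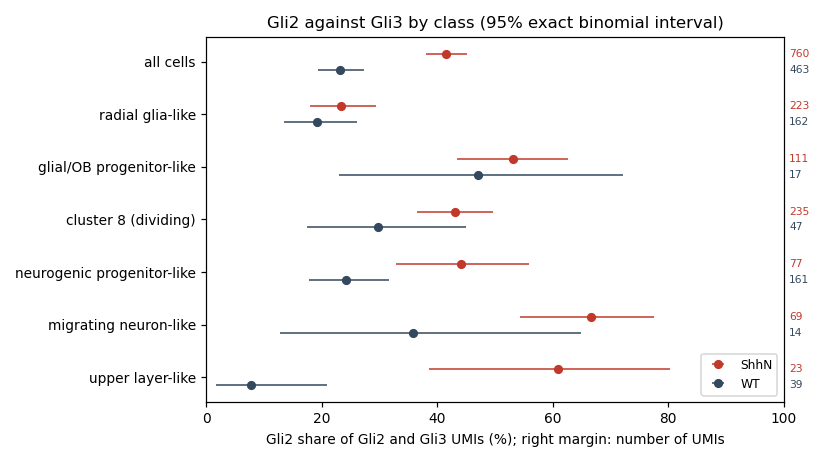
Share of Gli2 among Gli2 and Gli3 UMIs (horizontal axis, %) over all cells and in 6 classes (vertical axis), in the ShhN library (red) and the WT library (dark blue), with 95% exact binomial intervals and the number of UMIs at the right. The share is 44.2% in ShhN and 24.2% in WT neurogenic progenitor-like cells.

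The promoters of the members that differed most between libraries, Gli2 and Gas1, are shown with that of Gli3. The sequences are from RefSeq (GRCm38.p6) and run from 250 bases before the start of transcription to 50 after it, 5′ to 3′ on the gene's strand. Capitals mark the last 50 bases, from the start onward. The Gli2 promoter is chr1:119053570-119053869 on the minus strand, that of Gli3 is chr13:15463473-15463772 on the plus strand, and that of Gas1 is chr13:60177486-60177785 on the minus strand.
Gli2: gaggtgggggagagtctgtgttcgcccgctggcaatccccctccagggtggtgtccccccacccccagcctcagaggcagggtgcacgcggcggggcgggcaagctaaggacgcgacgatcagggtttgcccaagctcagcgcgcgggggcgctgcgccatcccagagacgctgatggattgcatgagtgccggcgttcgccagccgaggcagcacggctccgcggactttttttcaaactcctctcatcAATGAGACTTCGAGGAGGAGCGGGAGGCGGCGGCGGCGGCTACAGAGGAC
Gli3: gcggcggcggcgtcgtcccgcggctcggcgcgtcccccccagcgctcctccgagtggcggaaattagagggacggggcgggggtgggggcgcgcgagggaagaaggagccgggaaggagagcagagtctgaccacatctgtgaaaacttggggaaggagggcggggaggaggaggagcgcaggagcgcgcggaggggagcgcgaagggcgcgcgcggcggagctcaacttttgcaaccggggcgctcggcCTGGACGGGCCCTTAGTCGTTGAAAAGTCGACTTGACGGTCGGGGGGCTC
Gas1: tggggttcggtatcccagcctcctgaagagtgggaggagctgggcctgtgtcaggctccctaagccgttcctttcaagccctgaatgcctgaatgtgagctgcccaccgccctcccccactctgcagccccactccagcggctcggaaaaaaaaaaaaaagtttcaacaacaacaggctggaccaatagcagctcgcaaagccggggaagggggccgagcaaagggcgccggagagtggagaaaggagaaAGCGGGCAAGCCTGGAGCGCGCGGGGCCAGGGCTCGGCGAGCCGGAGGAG

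The 3 promoters are rich in G and C, at 67.3% for Gli2, 71.0% for Gli3 and 62.3% for Gas1, against a median of 52.7% over all promoters of the table. They hold 28, 39 and 17 CpG pairs for Gli2, Gli3 and Gas1, against a median of 7. The GLI core GACCACCCA, searched on both strands, was in 83 of 32851 promoters (0.253%), and its first 8 letters, GACCACCC, in 265 (0.807%). Promoter entries were matched for 8 of the 9 members, 9 promoters in all, and none held either motif. The Ptch1 promoter of the same window held neither. These letters are absent from these windows, which says nothing on binding.

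Whether the parts of the pathway were seen in the same cells was read after each cell was thinned to 4500 UMIs, with shallower cells left out (46 ShhN and 25 WT cells of the radial glia-like class). At that depth 84.7% of 203 ShhN and 84.0% of 150 WT radial glia-like cells held a UMI of Gas1, Cdon or Boc, against 89.2% of ShhN and 86.9% of WT cells without thinning. Gas1 alone was seen in 75.4% of ShhN and 70.0% of WT radial glia-like cells. Smo was seen in 26.1% of ShhN and 24.0% of WT cells of the class, and Gli2 or Gli3 in 45.3% of ShhN and 42.0% of WT cells. Smo, a coreceptor and a Gli factor were seen together in 10.3% (6.52% to 15.4%) of ShhN and 7.33% (3.72% to 12.7%) of WT radial glia-like cells. Without thinning these shares were 20.9% in the ShhN and 21.1% in the WT library, so that it moves with depth. Such shares count cells with a UMI, not cells that express a gene.

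Coreceptor detection was lower in the other progenitors, and lower again in most neurons, in both libraries. It was 39.4% in ShhN and 36.6% in WT cells of cluster 8, 31.8% and 27.5% in ShhN and WT glial/OB progenitor-like cells, and 18.3% and 19.7% in ShhN and WT neurogenic progenitor-like cells. Neurons stood lower, at 9.93% in ShhN and 8.83% in WT migrating neuron-like cells and 8.0% and 8.43% in ShhN and WT upper layer neuron-like cells. Of 30 ShhN vascular-like cells 0 held a coreceptor UMI, which allows a share of up to 10.0% by the limit of 3 counts, and 1 of 35 WT vascular-like cells did, or 2.86%. Neuronal shares therefore cannot be told from background at this number of vascular-like cells. The libraries differed beyond counting error in the GABAergic interneuron-like class, with 14.9% of 181 ShhN cells and 3.13% of 128 WT cells. Thinning left out 235 ShhN and 654 WT cells of that class, and the shares without it were 11.5% in the ShhN and 2.69% in the WT library. All parts together were seen in 4 of 1289 ShhN and 0 of 317 WT migrating neuron-like cells, and in 0 of 2363 ShhN and 0 of 2290 WT upper layer neuron-like cells.

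**Figure D5:**
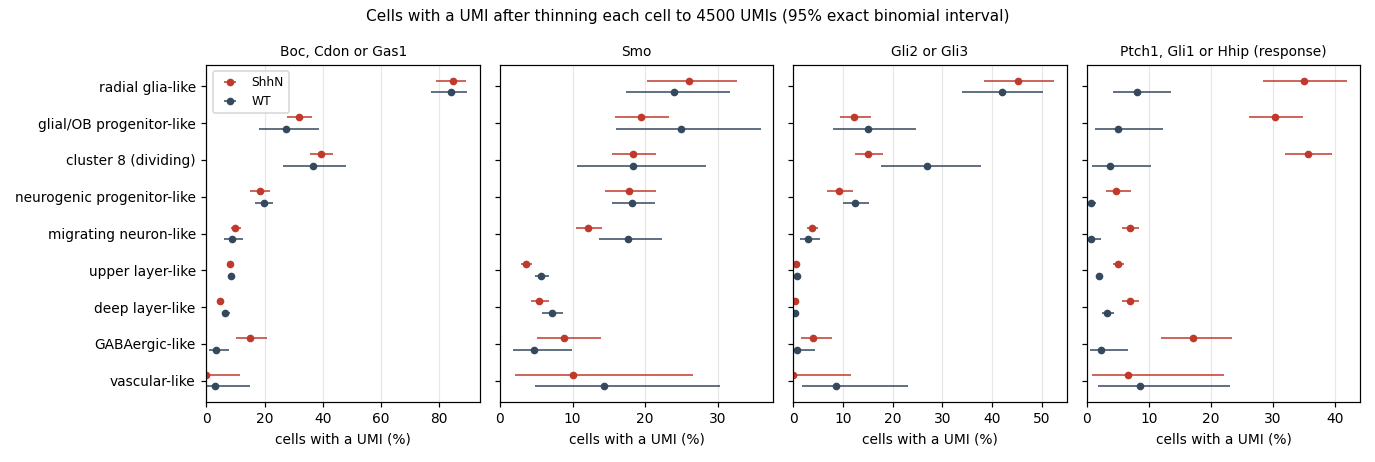
Share of cells with a UMI (horizontal axes, %) after thinning to 4500 UMIs, by class (vertical axis), for the coreceptors, Smo, the Gli factors and the response genes, in the ShhN library (red) and the WT library (dark blue) with 95% exact binomial intervals. Coreceptor shares are 84.7% in ShhN and 84.0% in WT radial glia-like cells, while response shares are 35.0% in ShhN and 8.0% in WT cells.

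The readout of the signal was set beside these levels. Ptch1, Gli1 or Hhip was seen in 35.0% of ShhN and 8.0% of WT thinned radial glia-like cells, in which the log2 ratios of the measured members had intervals that spanned 0, except that of Cdon. In cluster 8 the response share was 35.7% (230 of 644) in ShhN and 3.66% (3 of 82) in WT cells. The glial/OB progenitor-like class had 30.3% (136 of 449) in ShhN and 5.0% (4 of 80) in WT cells. In neurogenic progenitor-like cells the response share was 4.77% of ShhN and 0.593% of WT cells. Among neurons it was 6.90% of ShhN and 0.631% of WT migrating neuron-like cells, and 5.04% and 1.92% of ShhN and WT upper layer neuron-like cells. GABAergic interneuron-like cells, the class in which Gas1 was called, had the highest response share of these neurons, 17.1% (31 of 181) in ShhN and 2.34% (3 of 128) in WT cells. The shares in vascular-like cells were 6.67% (2 of 30) in ShhN and 8.57% (3 of 35) in WT cells, too few cells to set a background for the other classes. Ptch1 in free RNA stood at 31.0 CPM in the ShhN and 8.55 CPM in the WT library. In ShhN cells with fewer than 3 Shh UMIs, Ptch1 lay below that level in 3 of these classes. It stood at 9.56 CPM in neurogenic progenitor-like, 13.7 CPM in migrating and 9.15 CPM in upper layer neuron-like cells. The part of free RNA in the response shares was not tested.

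Within the ShhN library, cells with and without a UMI of a member were compared for the response share. In cluster 8, 55.0% (104 of 189) of cells with a Gas1 UMI held a response UMI, against 27.7% (126 of 455) of cells without one. In the glial/OB progenitor-like class the shares were 52.4% (54 of 103) with a Gas1 UMI and 23.7% (82 of 346) without. There Smo gave 33.3% with and 29.6% without, Gli3 28.6% and 30.4%, and Cdon 26.1% and 30.8%. Gli2 gave 48.5% with and 28.8% without, and Boc 46.2% and 29.8%. The intervals of each of these other pairs overlap. Radial glia-like cells had 37.3% (57 of 153) with Gas1 and 28.0% (14 of 50) without, with overlapping intervals. Smo did not part the cells this way in cluster 8, where 36.4% (43 of 118) with a Smo UMI and 35.6% (187 of 526) without one held a response UMI. Gli2 stood between, at 48.8% (21 of 43) with and 34.8% (209 of 601) without in cluster 8, and Gli3 at 42.6% (26 of 61) with and 35.0% (204 of 583) without, both with overlapping intervals. In radial glia-like cells Smo went the way of Gas1, at 43.4% with and 32.0% without, but the other members compared did not. Gli3 gave 29.1% with and 38.7% without, and Cdon 28.2% with and 38.6% without. Boc gave 22.2% with and 36.9% without, and Gli2 28.6% with and 35.7% without. The intervals of each pair overlap. Gas1 itself went the other way in neurogenic progenitor-like cells, at 2.86% with and 4.92% without. It also did so in migrating (6.25% and 6.92%) and upper layer neuron-like cells (1.79% and 5.11%), each with overlapping intervals. GABAergic interneuron-like cells had 40.9% (9 of 22) with Gas1 and 13.8% (22 of 159) without, with intervals apart. Most Gas1 UMIs of these ShhN cells lay in cluster 13, as given above, so that this split also follows the pair of clusters in the class. It was not made within each cluster. The ShhN cells all come from 1 library and were thinned to the same depth. WT cells, thinned alike, were split by Gas1 too. Those of the glial/OB progenitor-like class held a response UMI in 4 of 15 with Gas1 (26.7%) and 0 of 65 without, with intervals apart. WT cluster 8 gave 8.33% (2 of 24) with and 1.72% (1 of 58) without. WT radial glia-like cells gave 5.71% (6 of 105) with and 13.3% (6 of 45) without, and both of these pairs overlap in their intervals.

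Of 35 further pathway genes listed, 33 were matched in the table and 30 reached 50 UMIs over all cells. Of these, 5 were called higher in the ShhN library and none lower, beside the shares of 2.85% and 1.86% given above. Among the 5 were the ligand Shh and the feedback genes Ptch1, Hhip and Gli1, and the list's median log2 ratio was -0.09. Ptch1, the receptor, had a log2 ratio of 2.65 (2.46 to 2.85). Hhip, a surface inhibitor that binds the ligand, had 381 UMIs in ShhN and 3 in WT cells. Gli1, an activator that is itself induced, had 193 UMIs in ShhN and 4 in WT cells. In radial glia-like cells 11 of these genes were measured, and Ptch1 and Hhip were called higher. Ptch1 had 187 UMIs, or 104 CPM, in ShhN and 14 UMIs, or 9.72 CPM, in WT radial glia-like cells. Hhip had 65 UMIs in ShhN and 0 in WT radial glia-like cells, at least 17.4-fold higher against a floor of 3 counts in the WT class. Gli1 had 38 UMIs in ShhN and 2 in WT radial glia-like cells, under the 50 required. None of the measured genes that act on Smo or Gli turnover, in the cilium or through protein kinase A was called over all cells or in radial glia-like cells.

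Gas1, Cdon, Boc, Smo, Gli2 and Gli3 followed one another across classes, Smo and Boc least closely. Over 21 class by library sums, Pearson's r on log2(CPM + 10) was 0.96 between Gas1 and Gli2, 0.94 between Gas1 and Gli3 and 0.94 between Cdon and Gli3. Boc stood at 0.93 with Cdon and 0.90 with Gli3, and Smo at 0.89 with Gli2 and 0.68 with Boc. Sufu and Smo stood at 0.52, and Sufu and Disp1 at -0.55. These points share libraries and cell lineages and are a description. Among 11143 genes with at least 200 UMIs, the gene most like Gas1 was Jam2 (r = 0.99), a junction adhesion molecule. Gpx8 was most like Gli3 (0.98) and Hes5, a Notch target, second (0.97). Grb10, an adaptor of growth factor receptors, was most like Gli2 (0.97), Snap23, a membrane fusion protein, most like Cdon (0.97), Ptgfrn most like Boc (0.95) and Ptbp1, a splicing regulator, most like Smo (0.95). Sufu and Disp1 had no such close partner, with Trak2 at 0.88 and Klhdc4 at 0.75.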

How the data were processed

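Droplet single-cell RNA-seq of mouse cortex was deposited by the authors as counts of UMIs per gene and barcode, not normalized, in 1 matrix per group with 737280 barcodes, empty droplets included. Per the labels' protocols, cortices were dissociated with papain and libraries made with the 10x Genomics Chromium system. The mm10 build, Seurat 3, StringTie and Cell Ranger are listed, without roles, per the submitters' processing notes. The matrices carry control and experimental prefixes, matched here to the WT and ShhN titles.

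A barcode was kept as a cell with 2290 or more UMIs in the ShhN and 2332 or more in the WT library (10% of the 99th percentile among the 3000 richest barcodes), at least 800 genes and no more than 10% mitochondrial UMIs. Doublets called by scrublet in scanpy 1.11.5 at an expected 6% were removed (2.91% of 8317 ShhN and 4.05% of 7216 WT barcodes). Both libraries were clustered together (2000 variable genes without pathway genes, 30 components, 15 neighbours, leidenalg 0.10.2 at resolution 1). A cluster took the name of the marker list with at least 3 markers in 10% of its cells and raised 1.5-fold, if 1 or more of them were among its 10 leading genes and no other list had more. Endothelial and mural lists were joined as vascular, and this scoring was settled after the clusters were seen. The class names are therefore not the authors' and could differ from theirs.

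UMI sums of each class in each library were given as CPM with exact Poisson intervals, ratios with exact conditional binomial intervals and shares of cells with Clopper-Pearson intervals, all at 95%. Where a count was 0, the limit given is that of 3 counts. The size rule stated in the text was tried on simulated counts with planted differences. These carried counting error only, so that they cannot show how the rule fares with variation between embryos or electroporations. Whole-table counts were made for classes with at least 100 cells in each library. Named were all 9 members, other pathway genes past the size rule over all cells or in radial glia-like cells with Ptch1, Gli1 and Hhip, and the genes most like each member (Pearson's r, at least 200 UMIs). Not every gene that this rule names is reported here. Coordinates are from GENCODE M21 (GRCm38). GENCODE lists Gm48488 over Gas1 and Gm6556 over Gli3 on the opposite strand. Neither is in the count table, and use of strand in counting is not given in the sources used here. Free RNA was read in barcodes with 1 to 50 UMIs. The members and lists were chosen with earlier results of these data known. Alternatives covered cell calling, doublets, clustering, class assignment, scaling (TMM in edgeR 4.0.16), weight per cell, free RNA, depth and the UMI minimum.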

Additional observations from a re-analysis of the deposited data

Results flagged for a closer look

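Gas1 stood out because its log2 ratio of ShhN over WT took opposite signs in different classes, each with a counting interval that excluded 0. It was 0.65 in glial/OB progenitor-like cells (450 ShhN and 55 WT UMIs) and 2.85 in GABAergic interneuron-like cells (42 ShhN and 9 WT UMIs). The Gas1 log2 ratio was -0.86 in cluster 8 (749 ShhN and 183 WT UMIs) and -0.47 in upper layer neuron-like cells (93 ShhN and 121 WT UMIs). The share of thinned cluster 8 cells with a Gas1 UMI was 29.3% in both libraries, 189 of 644 ShhN and 24 of 82 WT cells, and the shares of glial/OB progenitor-like cells (22.9% in ShhN and 18.8% in WT) had overlapping intervals. With 1 library a group the difference between classes was not tested. Both progenitor groups held few WT cells, 94 in the glial/OB progenitor-like class and 86 in cluster 8.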

How the results depend on the processing

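Under every alternative to which the size rule was applied, the count of members called stayed at 1 over all cells (Gli2 higher) and at 0 in radial glia-like and neurogenic progenitor-like cells. With class shares fixed at WT no calls were made, and the Gli2 log2 ratio of 0.57 was short of the 1 required. In each library 6 members were highest in radial glia-like cells under all alternatives but thinning, which gave 7 in ShhN and 5 in WT. The share of radial glia-like cells with Smo, a coreceptor and a Gli factor moved: it was 20.9% in ShhN and 21.1% in WT without thinning, 4.18% in ShhN and 3.59% in WT at 3000 UMIs, and 6.42% in ShhN and 7.93% in WT with classes set by marker counts per cell. Marker counts, no thinning and 5% mitochondrial UMIs (8.37% in ShhN and 10.4% in WT) turned the order of the libraries. Of 282 single-member ratios, 273 stayed within the counting interval of the reported value and 9 left it. The sign differed from the reported one in 38, in each of which the reported interval spanned 0. In 5 of the 9 ratios that left the interval, class shares were fixed at WT, a choice made after seeing the data and given in the text. The others were Gli3 in neurogenic progenitor-like cells (-0.25 at resolution 2, against -0.85), Boc in radial glia-like cells (-0.36, against 0.24) and Gas1 in neurogenic progenitor-like cells (-0.45, -0.75 to -0.15, against 0.15) with marker counts per cell, and Sufu over all cells (-0.19 at 4500 UMIs, against 0.05). The cause was not tested. Counts over all genes were less stable. Genes higher and lower in radial glia-like cells numbered 41 and 36, against 10 and 26 thinned, 86 and 68 with marker counts, 65 and 65 at a minimum of 20 UMIs, 77 and 90 with no minimum and 9 and 10 at 200. In neurogenic progenitor-like cells they numbered 17 and 51, against 27 and 38 with TMM, 123 and 121 at resolution 2, 220 and 128 with marker counts, 36 and 77 at 20 UMIs, 61 and 84 with no minimum, 4 and 22 at 200, 11 and 36 thinned, 13 and 33 at 5% mitochondrial UMIs and 19 and 29 at the doubled UMI minimum. Over all cells 242 genes were lower, against 150 thinned and 140 at 200 UMIs. No paired analysis was possible because the cells of a group lie in 1 matrix and carry no sample or replicate number. Depth limits Lrp2, Disp1 and the Gli genes in neurons, which had too few UMIs to show a difference of moderate size.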

Other observations

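Within the ShhN library, neurons with 3 or more Shh UMIs were set beside those with fewer, which can include cells with some Shh. Migrating neuron-like cells with 3 or more Shh UMIs (67 cells) held 4 Smo UMIs, or 10.49 CPM (2.86 to 26.9). The other 1424 cells held 256 Smo UMIs, or 30.7 CPM (27.0 to 34.7). In upper layer neuron-like cells Smo stood at 6.97 CPM (3.48 to 12.47) in 193 cells with 3 or more Shh UMIs and at 8.64 CPM (7.33 to 10.1) in the other 2323. Boc there stood at 8.24 CPM (4.39 to 14.1) with 3 or more Shh UMIs and 4.52 CPM (3.58 to 5.63) with fewer.

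Within radial glia-like cells, those with a Mki67 or Top2a UMI, genes of dividing cells, held Gli3 at 106 CPM (86.3 to 130), against 84.0 CPM (65.8 to 106) in cells without one in the ShhN library. In the WT library Gli3 stood at 111 CPM (88.8 to 137) in cells with such a UMI and 68.1 CPM (49.9 to 90.8) in cells without. Gas1 stood at 374 CPM with and 393 CPM without in the ShhN library, and at 375 and 330 CPM in the WT library. These intervals overlap in each library.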
